A study of Arabidopsis thaliana with 40 samples.

Results

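GIGANTEA (GI, AT1G22770) was described by its 1 single-gene probe set, out of 13513 probe sets (13286 genes) that the annotation of the arrays pairs with a single gene and 22746 that were tested. The gene was chosen by name, with earlier results of these data known. GI encodes a large plant protein of the circadian clock. It stabilises the blue-light F-box proteins ZTL and FKF1 in the light, and with FKF1 it removes the CDF repressors of CONSTANS, so that long days bring on flowering through FT. Its transcript is known to cycle daily with a peak late in the day, and gi mutants are altered in flowering time, starch content and tolerance of salt, drought, cold and oxidative stress.

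Leaves of Arabidopsis thaliana were measured on 40 arrays in 16 groups, which fall into 3 sets, each with its own wild type (Col0). The mutants were altered in AOX1A, a mitochondrial alternative oxidase, in RPOTMP, an RNA polymerase of mitochondria and plastids, or in both (aox1a:rpoTmp, here the double mutant). Untreated plants stayed at 100 µE of light, in days of 16 h light and 8 h dark, and MLD plants were sampled after 4 d at about 350 µE without water (moderate light and drought). Each wild type and the double mutant had 3 arrays per treatment, and aox1a and rpoTmp each had 2 lines with 2 arrays per line and treatment.

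The kind of mutation, the number of plants behind an array and the hour of harvest are not given in the labels, and the double mutant is not described as more than 1 line. By the sample characteristics, plants of the aox1a set and the wild type of the rpoTmp set were 4 weeks old, rpoTmp was 5 weeks old, and wild type and double mutant of the double mutant set were 5 weeks old untreated and 4 weeks old under MLD. The protocol gives 4 weeks for aox1a and wild type, 5 for rpoTmp and 6 to 7 for the double mutant, and the source names give 4 weeks for every sample. By the characteristics, age runs with genotype in the rpoTmp set and with treatment in the double mutant set. By the protocol it runs with genotype in both. Where that holds, age and genotype or treatment cannot be told apart. Each array is a bulk leaf sample, in which fewer cells of a type and less RNA per cell cannot be told apart. No source says that arrays of a group came from separately grown plants, so the p-values measure the spread between these arrays, which may be technical.

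Among markers of other cell types, the leaf mesophyll genes RCA, LHCB4.2 and PSAN were bright (log2 intensity of at least 13.91, 9.19 and 10.66 on every array). The root markers EXPA7, EXPA18 and PYK10 stayed at or below 3.80, 3.45 and 3.40. FAMA, a marker of guard cells, lay between 5.36 and 6.79, and the floral, phloem and dividing-cell markers were not analysed here. The mutated genes did not serve as a check of the labels: AOX1A was not analysed here, and the RPOTMP probe set was dim, with group means from 2.48 to 4.28.

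The GI probe set was brighter than 64.8% to 95.2% of the probe sets of the same array, which is no measure of transcript abundance, since probe sets bind with different strength. Its group means spanned 3.61 log2 units, or 12.2-fold, against a pooled standard deviation (SD) within groups of 0.271. Of the total sum of squares, 44.4% lay between the 3 sets, 51.7% between groups of a set and 3.90% between arrays of a group.

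The highest means were those of MLD-stressed aox1a, at 10.02 ± 0.33 in line 2 and 10.01 ± 0.08 in line 1 (log2 intensity, SD, n = 2 each). They were followed by MLD-stressed wild type of the aox1a set (9.59 ± 0.04, n = 3), rpoTmp line 1 under MLD (9.55 ± 0.22, n = 2), untreated wild type of the aox1a set (9.47 ± 0.33, n = 3) and rpoTmp line 2 under MLD (9.36 ± 0.22, n = 2). The lowest means were those of untreated rpoTmp line 2 (6.98 ± 0.40, n = 2) and untreated wild type of the rpoTmp set (6.41 ± 0.06, n = 3). Of the 15 pairs of neighbours in the order of the means, 10 had overlapping arrays. The 5 steps without overlap lay below both aox1a lines under MLD, below rpoTmp line 2 under MLD, on either side of the MLD-stressed double mutant (8.57 ± 0.05, n = 3), and above untreated wild type of the rpoTmp set. The share of probe sets with such steps was not counted.

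**Figure D1:**
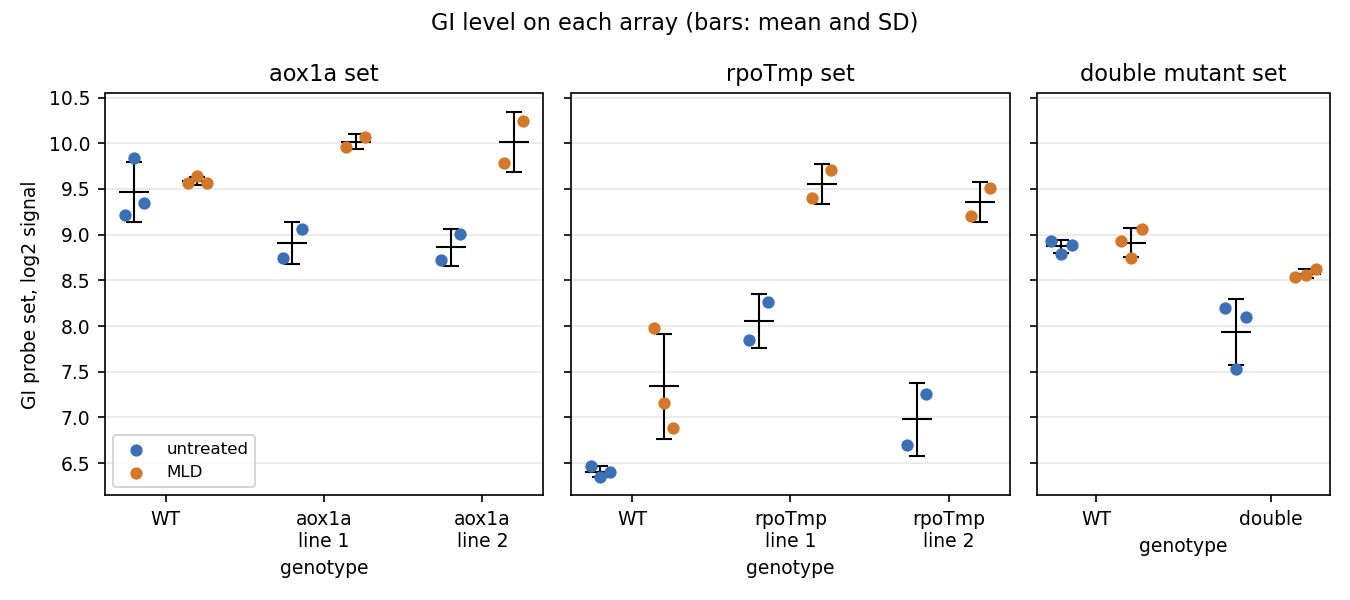
GI log2 intensity on each of the 40 arrays (points: blue untreated, orange MLD) by genotype and line in the 3 sets, with the mean and SD of each group (bars). Untreated wild type of the rpoTmp set lies lowest, with 6.35 to 6.47, and MLD-stressed aox1a highest, with 9.78 to 10.25.

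The 3 untreated wild types differed widely. The arrays read 9.22, 9.84 and 9.35 in the aox1a set, 8.93, 8.79 and 8.89 in the double mutant set, and 6.47, 6.35 and 6.40 in the rpoTmp set. No array of one set overlapped those of another, and the share of probe sets separated in this way was not counted. The range of the 3 means was 3.06 log2 units (8.36-fold), which exceeded that of 97.4% of the probe sets. Under MLD the range was 2.25 (4.75-fold, above 93.5% of the probe sets). Among the 13077 probe sets with a group mean of at least 5 in log2, these shares were 95.4% untreated and 88.8% under MLD. Set, array batch and time of harvest cannot be told apart here, so GI levels are compared below within a set, or as changes against the wild type of the same set. Comparisons of a set share its groups, and their values are given side by side and not as independent results.

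Whether the stress altered GI in the wild type was asked in each set. Called means an adjusted p under 0.05 (limma, Benjamini-Hochberg over all 22746 probe sets), and changes are given as log2 with their standard error (SE). In the aox1a set GI read 9.56, 9.64 and 9.57 under MLD, inside the range of the untreated arrays, a change of 0.12 ± 0.18 (adjusted p = 0.849, 95% interval -0.28 to 0.53), where 3.35% of probe sets were called. In the double mutant set the MLD arrays read 8.94, 8.75 and 9.06 and again overlapped the untreated ones. The change was 0.04 ± 0.16 (adjusted p = 0.864, interval -0.31 to 0.39), with 42.5% of probe sets called.

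In the wild type of the rpoTmp set the MLD arrays read 7.98, 7.16 and 6.88, all above the untreated arrays, as in 10.3% of probe sets. The change of 0.94 ± 0.27 (1.91-fold) did not pass the test (adjusted p = 0.0941, interval 0.33 to 1.54, 3.61% called), although it was larger than that of 95.8% of the probe sets. It passed with probe sets of low signal left out (adjusted p = 0.0462) and with all 40 arrays in 1 fit (0.00948). Without the MLD array at 7.98 the change was 0.62. Tested against each other, the wild-type changes of the double mutant and rpoTmp sets differed by -0.89 ± 0.31 (adjusted p = 0.0304, 26.1% called). This call was lost when any of 6 of the 40 arrays was left out. Without the array at 7.98 the difference was -0.57 (adjusted p = 0.126). Without untreated replicate 2 or 3 of the rpoTmp-set wild type, or untreated replicate 1 or 3 or MLD replicate 2 of the double mutant-set wild type, it lay between -0.89 and -0.81 (adjusted p from 0.0506 to 0.0729). The difference between the rpoTmp and aox1a sets, 0.81 ± 0.31, did not pass (adjusted p = 0.261, 0.809% called).

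In aox1a, GI rose under MLD in both lines, while that of the wild type stayed within its spread. Untreated arrays read 8.74 and 9.07 in line 1 and 8.72 and 9.01 in line 2. MLD arrays read 9.96 and 10.07 in line 1 and 9.78 and 10.25 in line 2. Every MLD array lay above every untreated one, as in 24.4% of probe sets.

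The rise in aox1a was 1.13 ± 0.15 (2.19-fold, adjusted p = 0.000408, 52.0% of probe sets called in this comparison). It was 1.11 in line 1 and 1.15 in line 2, each called alone (adjusted p = 0.00412 and 0.00586, beside 41.7% and 30.7% of probe sets). The lines differed by -0.04 ± 0.22 untreated and by 0.00 ± 0.22 under MLD. The test of the rise against that of the wild type (interaction) gave 1.01 ± 0.24 (adjusted p = 0.0193, 22.4% called). This call was lost without MLD wild-type replicate 1 (adjusted p = 0.0515) and with line 2 alone (0.0639).

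Set against the wild type within a treatment, the aox1a arrays lay below all wild-type arrays when untreated and above all of them under MLD. The untreated difference was -0.58 ± 0.17 (1.50-fold lower, adjusted p = 0.0649). That missed the threshold, where 6.85% of probe sets were called and 12.1% lay lower in all arrays. Under MLD it was 0.42 ± 0.17 (1.34-fold higher, adjusted p = 0.143, with 12.4% called and 16.6% higher in all arrays). The untreated difference passed with dim probe sets left out (adjusted p = 0.0433), with all 40 arrays in the fit (0.0478) and without untreated wild-type replicate 1 (0.0452).

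In rpoTmp, GI rose under MLD and was above its stressed wild type. Line 1 read 7.84 and 8.26 untreated and 9.40 and 9.71 under MLD. Line 2 read 6.70 and 7.26 untreated and 9.20 and 9.51 under MLD. All 4 MLD arrays lay above all untreated ones, as in 15.9% of probe sets.

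The rise was 1.94 ± 0.23 (3.83-fold, adjusted p = 0.000168, 34.7% of probe sets called), larger than that of 94.9% of the probe sets. Under MLD, rpoTmp exceeded the wild type by 2.11 ± 0.25 (4.33-fold, adjusted p = 0.000234, 30.0% called), with no overlap (17.7% of probe sets higher in all arrays). Untreated, the rpoTmp arrays also lay above all 3 wild-type arrays, as in 5.84% of probe sets. That difference of 1.11 ± 0.25 (2.16-fold) did not pass (adjusted p = 0.0699, interval 0.54 to 1.68, 1.55% called), although it exceeded that of 98.6% of the probe sets. It passed with dim probe sets left out (0.0351), with all 40 arrays in the fit (0.00168) and without MLD wild-type replicate 1 (0.0304).

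The untreated lines of rpoTmp stood apart. Line 2 was lower than line 1 by 1.07 ± 0.33 on the log2 scale with no overlap, as in 25.6% of probe sets, but the difference did not pass (adjusted p = 0.291, 0.0967% called). Against the untreated wild type, line 1 was higher by 1.65 ± 0.30 (adjusted p = 0.0337, 1.86% called) and line 2 by 0.57 ± 0.30 (adjusted p = 0.573, 0.426% called). Under MLD both lines were called higher, by 2.21 and 2.01 (adjusted p = 0.000737 and 0.00125, beside 25.3% and 23.9% of probe sets), and they differed by -0.20 ± 0.33. The rise was 1.50 ± 0.33 in line 1 and 2.38 ± 0.33 in line 2, each called (adjusted p = 0.0111 and 0.000666, beside 20.6% and 27.7%).

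The rise of rpoTmp exceeded that of its wild type by 1.00 ± 0.36, which did not pass (adjusted p = 0.0986, interval 0.20 to 1.81, 14.9% called). With line 1 alone it was 0.56 ± 0.43 (adjusted p = 0.591), and with line 2 alone 1.44 ± 0.43 (adjusted p = 0.0538). It passed with dim probe sets left out (adjusted p = 0.0468), with all 40 arrays in the fit (0.0134) and without MLD wild-type replicate 1 (0.0126).

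Signs of RNA quality moved with MLD in rpoTmp. Ratios of 3′ over 5′ signal, as log2, were available for a pair of GAPDH probe sets, for another GAPDH pair, and for actin. On the first GAPDH pair rpoTmp read 3.45 to 3.89 under MLD against 3.03 to 3.22 untreated, on the other 0.15 to 0.41 against -0.47 to 0.11, and on actin 6.57 to 6.82 against 5.83 to 6.26. None of the 3 overlapped. Between the untreated lines, the first GAPDH pair overlapped, while the other pair (0.088 to 0.11 in line 1, -0.47 to -0.22 in line 2) and actin (6.12 to 6.26 and 5.83 to 5.86) did not. Ranges of rpoTmp and its wild type overlapped on all 3 within each treatment, as did those of aox1a and its wild type. The part of these ratios in the GI values was not tested.

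In the double mutant, untreated GI was below the wild type, and it rose under MLD with every array still below those of the stressed wild type. The untreated arrays read 8.20, 7.53 and 8.10 and the MLD arrays 8.54, 8.56 and 8.63. Every untreated array lay below all wild-type arrays, as in 20.9% of probe sets, and every MLD array lay below all MLD wild-type arrays, as in 28.3%.

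The untreated difference was -0.93 ± 0.16 (1.91-fold lower, adjusted p = 0.00273, 19.7% of probe sets called). Under MLD it was -0.34 ± 0.16 (1.27-fold lower, adjusted p = 0.127, interval -0.69 to 0.01, 35.9% called), which passed without untreated double mutant replicate 2 (adjusted p = 0.0106). The rise within the double mutant was 0.63 ± 0.16 (1.55-fold, adjusted p = 0.0164, 22.0% called), with no overlap (14.9% of probe sets higher in all arrays). This call was lost without MLD double mutant replicate 3 (adjusted p = 0.0525). The interaction was 0.59 ± 0.22 and did not pass (adjusted p = 0.0689, 32.6% called). It passed with quantile normalisation (0.0486), array medians removed (0.0373), dim probe sets left out (0.0444) or without untreated double mutant replicate 1 or 2. Without replicate 2, whose array read 7.53, it was 0.38.

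The same ratios were compared in this set, and they differed in direction. On the first GAPDH pair the untreated double mutant read 3.13 to 3.25 against 3.49 to 3.66 in its wild type, and 3.06 to 3.57 against 3.88 to 4.10 under MLD, lower in both with no overlap. Actin was higher in the untreated double mutant with no overlap (6.58 to 6.63 against 6.33 to 6.48) and overlapped under MLD (6.27 to 6.68 against 6.37 to 6.94). On the other GAPDH pair the ranges overlapped in both treatments. Within the wild type of this set, the first GAPDH pair was higher under MLD (3.88 to 4.10) than untreated (3.49 to 3.66) with no overlap. There the other GAPDH pair and actin overlapped between treatments. Within the double mutant, untreated and MLD arrays overlapped on all 3 ratios. Their part in the GI values was not tested.

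**Figure D2:**
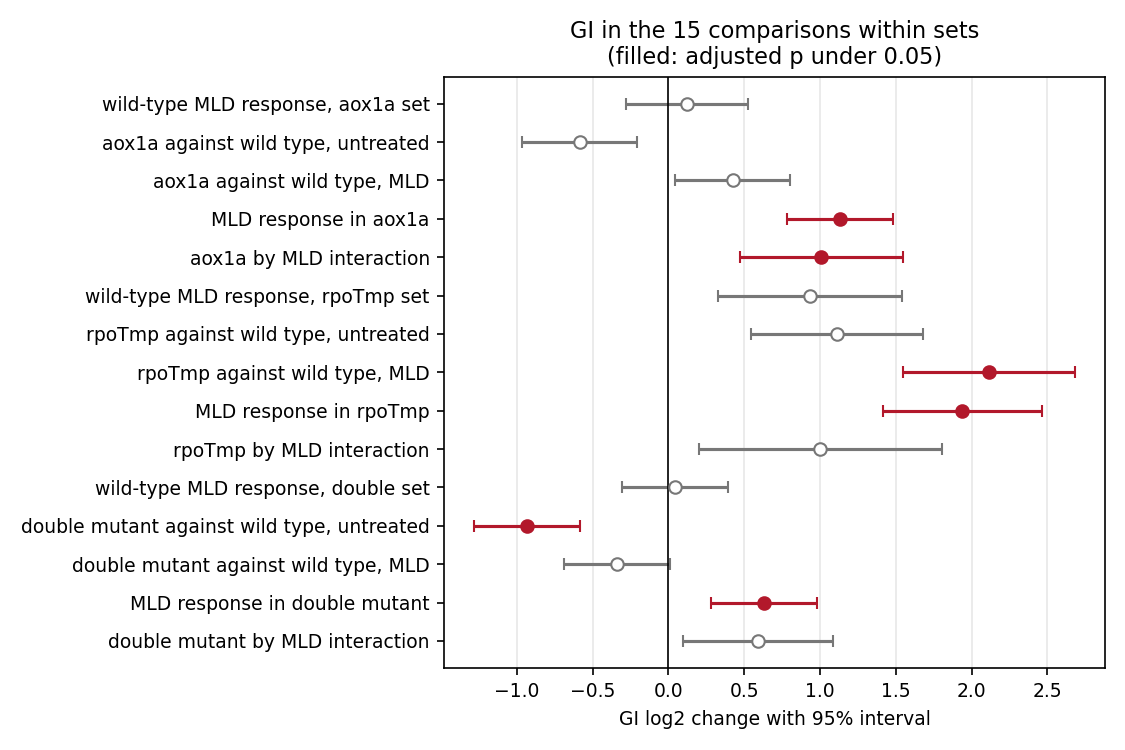
Log2 change of GI (points, filled where called) with 95% intervals from the limma fit (bars) in the 15 comparisons within the sets. The difference between rpoTmp and wild type under MLD lies farthest above 0 (2.11), and that between the untreated double mutant and wild type farthest below (-0.93).

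One fit over the 40 arrays set the effect of the double mutant against the effects of aox1a and of rpoTmp, with each effect taken relative to the wild type of its own set. The effect of the double mutant was lower than that of rpoTmp by 2.04 ± 0.30 on the log2 scale in untreated leaves (adjusted p = 3.98e-05, 9.47% of probe sets called). Under MLD it was lower by 2.45 ± 0.30 (adjusted p = 1.93e-07, 41.9% called). The estimates had opposite signs in both treatments. GI read higher in rpoTmp than in its wild type and lower in the double mutant than in its own. Tested alone, untreated rpoTmp (adjusted p = 0.0699) and the double mutant under MLD (adjusted p = 0.127) did not pass against wild type.

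Against aox1a, the effect of the double mutant differed by -0.35 ± 0.30 in untreated leaves (adjusted p = 0.435, interval -0.96 to 0.26, 23.8% called). Under MLD it was lower by 0.76 ± 0.30 (adjusted p = 0.0482, 33.0% called). This last call was close to the threshold: it was lost with 26 of the 40 arrays when each was left out in turn, with quantile normalisation (adjusted p = 0.0880), and with either aox1a line alone (0.0764 and 0.0821). Both differences from aox1a rest on wild types of unlike GI level. Untreated, the means were 9.47 in the aox1a set and 8.87 in the double mutant set, and under MLD 9.59 and 8.91. The wild type of the rpoTmp set, used in the comparison with rpoTmp, lay farther off, at 6.41 and 7.34.

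Of 129 listed genes of the clock, flowering, light signalling, starch turnover and stress pathways linked to GI, 17 had a single-gene probe set. The core clock genes and CO, FT and the CDF genes were not analysed here. Of the 17, 9 rose and 0 fell in aox1a under MLD, where 24.8% of all probe sets rose and 27.2% fell (median change 0.33, against -0.02 over all probe sets). In rpoTmp 4 rose and 3 fell, beside 18.0% and 16.7% of all probe sets (median 0.21, against -0.01). For the double mutant 5 rose and 3 fell, beside 10.2% and 11.9% (median 0.01, against -0.03).

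In the wild types, MLD raised 3 and lowered 0 of the 17 in the aox1a set, beside 2.08% and 1.27% of all probe sets. In the rpoTmp set 0 of the 17 were called (3.61% of all probe sets), and in the double mutant set 6 rose and 1 fell, beside 18.3% and 24.2%.

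Among the 4 measured of 38 clock genes, TIME FOR COFFEE (TIC), a nuclear clock regulator, was called in aox1a both untreated and under MLD. In untreated aox1a TIC was below the wild type by 1.17 ± 0.22 on the log2 scale (adjusted p = 0.0321, 6.85% of all probe sets called). It rose by 1.55 ± 0.20 under MLD in aox1a (adjusted p = 0.000334), with an interaction of 1.91 ± 0.31 (adjusted p = 0.00654) and a change in the wild type of -0.36 ± 0.24 (adjusted p = 0.509). Stressed rpoTmp exceeded its wild type in TIC by 0.69 ± 0.16 (adjusted p = 0.00903). Double mutant leaves showed a fall of TIC under MLD by 0.40 ± 0.11 (adjusted p = 0.0220), where GI rose.

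COR27, a cold-regulated gene that acts in the clock, rose in aox1a under MLD by 2.17 ± 0.37 (adjusted p = 0.00113). Its change in the wild type of that set was 1.69 ± 0.42 (adjusted p = 0.0668), and the interaction of 0.48 ± 0.56 did not pass (adjusted p = 0.572). Unlike GI, COR27 exceeded the wild type in untreated leaves of the double mutant, by 0.60 ± 0.07 (adjusted p = 0.000392), and fell there under MLD by 0.40 ± 0.07 (adjusted p = 0.00238). XCT and FIO1 were dim, with at most 3.38 and 4.49 on any array.

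Of 34 genes of photoperiod and flowering, 7 were measured. SPINDLY (SPY), an O-fucosyltransferase that binds GI, was lower in untreated aox1a by 0.81 ± 0.14 (adjusted p = 0.0278). It rose in aox1a under MLD by 1.01 ± 0.13 (adjusted p = 0.000295) and fell in the double mutant by 0.57 ± 0.17 (adjusted p = 0.0407) and in its wild type by 0.56 ± 0.17 (adjusted p = 0.0243). SCHNARCHZAPFEN (SNZ), an AP2-type floral repressor, fell in rpoTmp under MLD by 0.97 ± 0.18 (adjusted p = 0.00228) and rose in the double mutant by 1.46 ± 0.18 (adjusted p = 0.000458).

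Among the 7, the largest change in untreated rpoTmp was that of AGL42, a MADS-box gene related to SOC1, which was above wild type by 4.01 ± 0.78 (adjusted p = 0.0403). Under MLD its difference from wild type was 0.72 ± 0.78 (adjusted p = 0.592). The MADS-box floral activator AGL19 was higher than in wild type in rpoTmp, by 3.12 ± 0.56 untreated and 4.11 ± 0.56 under MLD (adjusted p = 0.0321 and 0.000497). It was also higher in the double mutant, by 1.60 ± 0.21 and 2.32 ± 0.21 (adjusted p = 0.000839 and 3.15e-05), where GI was lower untreated. AGL24, another MADS-box activator of flowering, was below wild type in untreated leaves of the double mutant by 0.93 ± 0.17 (adjusted p = 0.00506) and rose there under MLD by 2.05 ± 0.17 (adjusted p = 6.77e-05). AGL42, AGL19 and AGL24 were dim in part of the arrays (lowest 2.45, 2.54 and 3.27), so the sizes of their rises are not exact.

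The remaining lists had few measured members. HYH, the bZIP homologue of HY5 and the 1 measured of 23 light signalling genes, rose under MLD in aox1a by 1.92 ± 0.13 and in rpoTmp by 1.27 ± 0.34 (adjusted p = 2.03e-05 and 0.0153). It also rose in the wild type of the aox1a set, by 0.74 ± 0.15 (adjusted p = 0.0331). HYH was dim (2.41 to 5.49 over the arrays, median 3.28), so these sizes are not exact. Of 15 starch genes 2 were measured. PWD, the phosphoglucan water dikinase of starch breakdown, rose in aox1a by 1.01 ± 0.13, in rpoTmp by 0.30 ± 0.10 and in the double mutant by 0.68 ± 0.09 (adjusted p = 0.000326, 0.0427 and 0.00056). The wild type of the double mutant set rose in PWD by 1.06 ± 0.09 (adjusted p = 8.78e-06). DPE1, a plastid glucanotransferase, fell in rpoTmp by 0.57 ± 0.10 and rose in the double mutant by 0.67 ± 0.09 (adjusted p = 0.00184 and 0.000555), as in its wild type, by 0.51 ± 0.09 (adjusted p = 0.000783).

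Of 19 salt, drought and cold genes linked to GI, 3 were measured. EEL, a bZIP factor that acts with GI in the drought response, was dim (2.56 to 4.18). Under MLD it exceeded the wild type in rpoTmp by 0.94 ± 0.22 (adjusted p = 0.00867). The dehydrin gene LTI30 rose under MLD by 3.21 ± 0.37 in aox1a and by 2.23 ± 0.43 in its wild type (adjusted p = 0.000184 and 0.0319), and the interaction of 0.99 ± 0.57 did not pass (adjusted p = 0.246). It lay below the wild type in the MLD-stressed double mutant by 3.20 ± 0.61 (adjusted p = 0.00236).

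Of the 3 measured mesophyll markers, 2 fell in aox1a and rpoTmp under MLD, where 27.2% and 16.7% of all probe sets fell. LHCB4.2, an antenna protein, fell by 2.99 ± 0.14 in aox1a and by 3.09 ± 0.36 in rpoTmp (adjusted p = 5.72e-06 and 0.000131). The double mutant showed a fall of 0.41 ± 0.13 (adjusted p = 0.0441). PSAN, a subunit of photosystem I, fell by 2.06 ± 0.14 in aox1a and by 2.15 ± 0.16 in rpoTmp (adjusted p = 2.53e-05 and 1.05e-05), and its change in the double mutant was -0.08 ± 0.10 (adjusted p = 0.694). The changes of RCA, Rubisco activase, were 0.12, 0.12 and -0.05 in these 3 comparisons. The part of the mesophyll genes in the GI values was not tested.

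**Figure D3:**
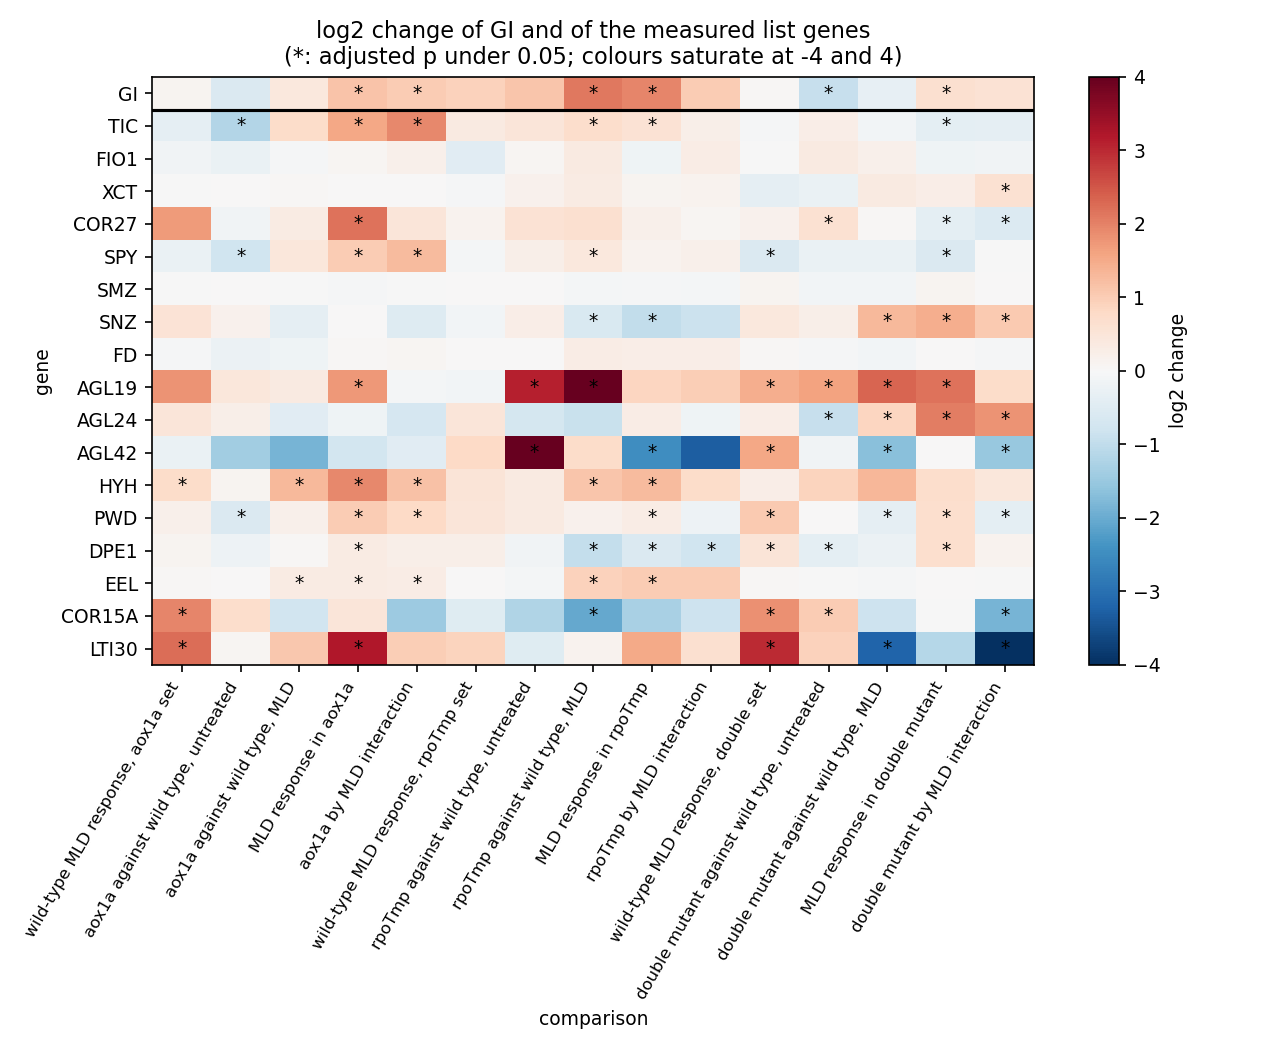
Log2 change (colour) of GI and of the 17 measured pathway genes (rows) in the 15 comparisons within the sets (columns), with asterisks for called changes; colours saturate at -4 and 4. In aox1a under MLD, 9 of the 17 pathway genes rose and 0 fell, where 24.8% of all probe sets rose and 27.2% fell.

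The genes most like GI were ranked by Pearson's r over the 40 arrays after the mean of each set was subtracted. The ranking covered 5139 single-gene probe sets with a group mean of at least 5. Their range of group means, after this subtraction, was at least 1. Arrays of a group share their treatment and genotype, so r is a description. Of the 5139, 89 had an r above 0.8 and 110 had an r below -0.8. The 8 most alike were AT3G01060 (r = 0.91), AT2G17710, AT3G50210, AT2G31110, AT4G18593 and AT4G26950 (0.88 each), and AT1G25520 and ALN (0.87 each). ALN encodes allantoinase of purine breakdown, and AT2G31110 is named TBL40 in the gene table.

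Within the sets, r of these 8 lay between 0.82 and 0.94 in the aox1a set, between 0.92 and 0.98 in the rpoTmp set and between 0.36 and 0.78 in the double mutant set. For each of the 8, r was lowest in the double mutant set. There the group means of GI, after the mean of the set was subtracted, ran from -0.63 to 0.34. They ran from -0.62 to 0.53 in the aox1a set and from -1.39 to 1.76 in the rpoTmp set. AT4G26950, with the r of 0.36, was dim in the double mutant set (group means from 2.83 to 3.16). The part of these limits in the r of the 8 was not tested. Since these genes were chosen by the same arrays, their changes are given without a test. Under MLD the log2 changes of the 8 lay between 0.96 (AT3G01060) and 3.08 (AT2G17710) in aox1a and between 1.16 and 4.52 in rpoTmp, for the same genes. For the double mutant they lay between -0.33 (AT2G31110) and 0.54 (AT3G01060), where GI changed by 0.63. In untreated leaves the differences of the 8 from the wild type lay between -2.31 (AT2G17710) and -0.29 (AT4G18593) in aox1a. In rpoTmp they lay between 0.07 (AT4G18593) and 1.88 (AT2G17710), and in the double mutant between -1.93 (ALN) and 0.16 (AT3G50210).

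The 4 most opposite genes were AT5G25100 (r = -0.89), AT3G18060 (-0.88), GPDHC1 and IDH-VI (-0.86 each). The choice depended in part on subtracting the set means. Without that step, r was -0.77 for AT5G25100, -0.21 for AT3G18060, -0.54 for GPDHC1 and -0.92 for IDH-VI. Among the alike genes it was then 0.59 for AT4G26950 and between 0.79 and 0.90 for the others. GPDHC1, a cytosolic glycerol-3-phosphate dehydrogenase, had log2 changes under MLD of -2.80 in aox1a, -2.62 in rpoTmp and -0.52 in the double mutant.

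**Figure D4:**
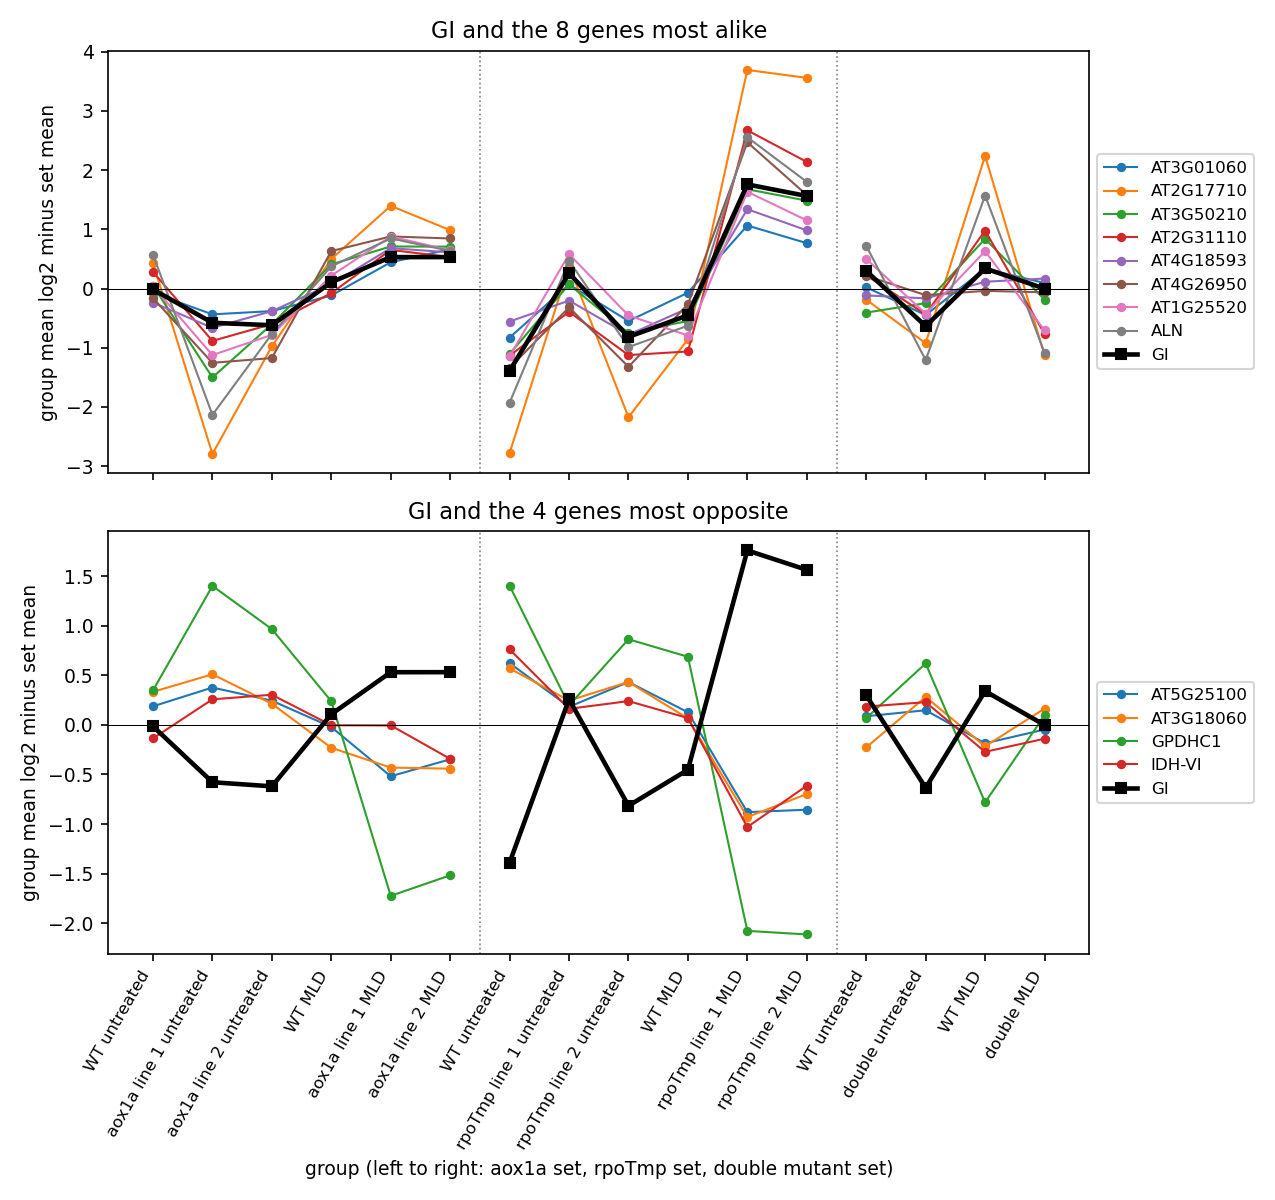
Group mean log2 intensity minus the mean of the set, for GI (black squares) with the 8 most alike genes (upper panel) and the 4 most opposite genes (lower panel), in the 16 groups. Each of the 8 alike genes had its lowest r with GI in the double mutant set (right), between 0.36 and 0.78. GI spanned least there, and the 8 were chosen by r over all sets.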

How the data were processed

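Leaf RNA was hybridised as biotin-labelled cRNA, following Affymetrix's protocol, per the labels. The deposited table holds linear intensity values of 22810 probe sets on 40 arrays. Affymetrix Expression Console, MAS5, Partek 6.5 and GCRMA are named, without roles or order, per the submitters' processing notes. No source used here says if the 3 sets were processed or normalised as one. Array medians lay between 23.5 and 27.2 (linear intensity, control probe sets included). The number of arrays limits the precision.

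Values were taken to log2 with no pseudocount, and 64 control probe sets were left out. Names came from the table that pairs probe sets with genes (13513 with 1 gene, 503 with several, 8730 with none), and the TAIR10.1 gene table, used for names only, held 13436 of these single genes. Within a set, limma (version 3.58.1, under R 4.3.3) estimated 1 mean for each group, and both lines of a single mutant had equal weight. Comparisons between sets came from 1 fit of the 40 arrays. P-values were Benjamini-Hochberg adjusted over 22746 probe sets within a comparison. The procedure was tested on simulated data.

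GI and the gene lists were chosen with earlier results of these data known. A single-gene probe set was found for 24 of 171 list entries, and 4 entries whose symbol differs from that of the gene table were left out. At most 4 called members of a list and comparison were named, those with the largest change, and the text prints a selection. The mesophyll markers were chosen as markers, and their values are printed whether called or not, as for XCT and FIO1. The genes most like GI were the 8 with the highest and the 4 with the lowest r. Alternatives were an offset of 16, quantile normalisation, removal of array medians, leaving out dim probe sets (mean log2 under 5 in every group), a trended and robust prior, a replicate block, 1 line alone, 1 fit of all arrays, and each array left out in turn.

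Replicate numbers are shared between groups. Correlations of deviations between same-numbered arrays lay between -0.37 and 0.53 in the aox1a set, -0.16 and 0.29 in the rpoTmp set, and -0.09 and 0.17 in the double mutant set. These values did not settle whether the numbers pair the arrays, and no block entered the tests. Results with a replicate block are given below.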

Additional observations from a re-analysis of the deposited data

Results flagged for a closer look

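In 5 comparisons, differences between groups were past the threshold in a test of the difference itself. The MLD change of GI was greater in aox1a than in the wild type of its set by 1.01 (log2, adjusted p = 0.0193), and GI was higher under MLD than untreated in all arrays of both aox1a lines. The effect of the double mutant was below that of rpoTmp by a difference of -2.04 in untreated leaves and -2.45 under MLD, and below that of aox1a by a difference of -0.76 under MLD. The wild-type MLD change in the double mutant set differed from that in the rpoTmp set by -0.89 (adjusted p = 0.0304), a call held in 34 of 40 fits that each left out 1 array. The difference from aox1a under MLD held in 14 of 40. A check of the gap at either end against the full range flagged no array among the pools of 4, which join 2 lines. With 2 arrays per line, it could not show an array apart from its own line. Groups of 3 were not tested.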

How the results depend on the processing

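An offset of 16 and a trended, robust prior left all 26 tested GI results with the direction and call reported above. With quantile normalisation the wild-type MLD change of the double mutant set was -0.035, the double mutant interaction passed at 0.66 and the double mutant minus aox1a difference under MLD, -0.69, no longer passed. With array medians removed these were -0.033 for the first and 0.65 (passing) for the second, and the difference between aox1a lines under MLD was -0.0010. With dim probe sets left out, 5 results passed: aox1a untreated -0.58, rpoTmp-set wild-type MLD change 0.94, rpoTmp untreated 1.11, rpoTmp interaction 1.00 and double mutant interaction 0.59. All but the last also passed with all 40 arrays in the fit, at -0.58, 0.94, 1.11 and 1.00. There fewer probe sets were tested or more arrays gave the spread. With line 1 alone, untreated rpoTmp passed at 1.65 and the double mutant minus aox1a difference under MLD (-0.76) did not. With line 2 alone that difference (-0.76) and the aox1a interaction (1.03) did not pass. The cause of the other changes was not tested.

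With the replicate block, untreated aox1a passed at -0.62 and the double mutant interaction at 0.59, and the other 24 results kept their call. The block moved the number of called probe sets by a factor between 0.272 and 1, the lowest in untreated rpoTmp (353 to 96). Every array correlated best with its own number in 2 of 8 pairs of groups, a hint from the data and not the design.

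With each array left out in turn, in the aox1a set, the wild-type MLD change ran from -0.0028 to 0.31, aox1a minus wild type untreated from -0.71 to -0.40, the interaction from 0.82 to 1.13, and the line differences from -0.20 to 0.12 untreated and -0.23 to 0.23 under MLD. In the rpoTmp set, rpoTmp minus wild type untreated ran from 0.97 to 1.25 and the interaction from 0.77 to 1.32. In the double mutant set, the wild-type change ran from -0.032 to 0.13, the difference under MLD from -0.43 to -0.27, the MLD change from 0.43 to 0.76 and the interaction from 0.38 to 0.72. The double mutant minus aox1a difference under MLD ran from -0.88 to -0.65, and the wild-type differences in MLD change from -1.12 to -0.57 (double mutant minus rpoTmp set), -0.26 to 0.045 (double mutant minus aox1a set) and 0.49 to 1.05 (rpoTmp minus aox1a set). The double mutant minus aox1a difference untreated ran from -0.53 to -0.14, and that between rpoTmp lines under MLD from -0.35 to -0.041. A group of 2 then holds 1 array, which is assumed to vary like the others. Depth is not known for arrays, and dim genes near the background have no exact change.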

Other observations

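GI was higher in replicate 2 than in replicate 1 in all 8 groups of the single-mutant lines, by 0.12 to 0.57 log2 units. Of all probe sets, 59 (0.259%) were higher in replicate 2 in all 8 groups, and 0.791% were lower. This was noticed in the data and is given as values.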
